A study of Rattus norvegicus with 15 samples.

Results

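Immediate early genes and the AP-1 family were followed in rat retina by RNA sequencing, as 10 genes chosen by symbol (Fos, Fosb, Fosl2, Jun, Junb, Jund, Atf3, Egr1, Nr4a1 and Ier2) out of 20375 genes listed. All 10 had a mean level high enough to be tested, among 15429 genes tested over 12 libraries and 15424 over 15. The retinas came from wild type Sprague-Dawley rats at postnatal week 12, taken on day 31 after transplantation, with 3 libraries in each of 5 groups. The NT group was healthy. The other groups all received systemic sodium iodate (NaIO3, 40 mg/kg), a toxin that damages the retinal pigment epithelium and then the photoreceptors. The sham group received NaIO3 and vehicle, the MSC group received human mesenchymal stem cells from Wharton's jelly, the MSCEPO group received the same cells engineered to express erythropoietin, and the last group received cells labelled DPSC. By the study's methods the MSC and MSCEPO cells were injected into the vitreous before the NaIO3. Rats with xenografts also received dexamethasone (2 mg/kg) and then oral cyclosporin (10 mg/kg/day), so the cells and these immunosuppressants cannot be told apart in a comparison with sham. Nothing in the labels says whether each library was a separate animal, so the p-values measure only the spread between these libraries.

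Immediate early genes are switched on by signalling through MAP kinases, calcium and cyclic AMP without any new protein being made, and their transcripts are usually short-lived. Proteins of the Fos family (Fos, Fosb, Fosl2) cannot pair with each other and bind DNA as dimers with proteins of the Jun family (Jun, Junb, Jund), and these dimers form AP-1. Atf3 is a related leucine zipper factor induced by cellular stress. Egr1, a zinc finger factor, Nr4a1 (Nur77), an orphan nuclear receptor, and Ier2, a small nuclear protein, are early response genes outside AP-1. In the retina, light and neural activity are known to induce Fos and Egr1 in inner neurons, and Jun and Atf3 are well-known markers of injured ganglion cells.

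The promoter windows of 4 members are shown because Egr1, Nr4a1 and Ier2 are the members outside AP-1, with group means below NT after NaIO3, and Jund is a member that passed the test against NT in both MSC groups. RefSeq sequences on the GRCr8 build, 300 bases from 250 before the start of transcription to 50 after it, matched 7 of the 10 members (Fosb, Fosl2, Junb, Jund, Egr1, Nr4a1 and Ier2). Fos, Jun and Atf3 had no entry. The windows are chr18:26736828-26737127 on the plus strand for Egr1, chr7:134259888-134260187 on the plus strand for Nr4a1, chr19:40399123-40399422 on the plus strand for Ier2 and chr16:18769722-18770021 on the minus strand for Jund, each written 5′ to 3′ along the gene. Capitals mark exact matches, on either strand, to the cyclic AMP response element (CRE, TGACGTCA), the AP-1 site (TGACTCA), an EGR site (GCGGGGGCG or GCGTGGGCG), the CArG box bound by serum response factor, and a TATA box (TATAAA). No matched motifs overlapped.
Egr1: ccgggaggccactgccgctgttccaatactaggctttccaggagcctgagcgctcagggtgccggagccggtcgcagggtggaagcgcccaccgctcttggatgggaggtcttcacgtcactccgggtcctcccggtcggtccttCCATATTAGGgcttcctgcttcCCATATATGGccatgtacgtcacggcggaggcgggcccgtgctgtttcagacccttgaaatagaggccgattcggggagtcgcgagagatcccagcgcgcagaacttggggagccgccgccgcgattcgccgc
Nr4a1: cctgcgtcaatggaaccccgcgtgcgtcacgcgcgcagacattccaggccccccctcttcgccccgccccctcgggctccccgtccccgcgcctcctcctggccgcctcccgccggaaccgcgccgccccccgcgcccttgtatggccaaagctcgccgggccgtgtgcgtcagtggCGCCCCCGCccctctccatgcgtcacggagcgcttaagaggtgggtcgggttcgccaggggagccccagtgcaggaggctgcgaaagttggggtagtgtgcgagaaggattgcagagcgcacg
Ier2: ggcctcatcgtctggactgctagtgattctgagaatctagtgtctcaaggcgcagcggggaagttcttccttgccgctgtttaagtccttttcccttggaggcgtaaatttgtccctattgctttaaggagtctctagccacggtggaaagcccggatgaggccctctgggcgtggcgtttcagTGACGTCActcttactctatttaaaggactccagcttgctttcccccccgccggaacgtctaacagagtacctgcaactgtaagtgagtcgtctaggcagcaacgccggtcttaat
Jund: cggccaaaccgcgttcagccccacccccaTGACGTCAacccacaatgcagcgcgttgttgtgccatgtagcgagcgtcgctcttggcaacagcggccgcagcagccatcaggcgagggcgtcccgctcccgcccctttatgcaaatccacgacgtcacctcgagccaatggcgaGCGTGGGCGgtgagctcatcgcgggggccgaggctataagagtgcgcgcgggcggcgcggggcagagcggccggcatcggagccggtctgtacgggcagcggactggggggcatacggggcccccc

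Egr1 held CArG boxes at positions -105 to -96 and -83 to -74, counted back from the start, a motif found in 1.64% of the 33469 rat promoters of the same length. Ier2 held a CRE at -66 to -59 and Jund held one at -221 to -214, against 1.83% of all promoters. An EGR site with G stood at -73 to -65 in Nr4a1 (2.73% of all promoters), and one with T at -76 to -68 in Jund (0.544%). The AP-1 site itself was in 0 of the 7 windows, against 4.63% of all promoters. The TATA box motif was matched in Junb at -49 to -44 and in Fosb at -180 to -175, there on the opposite strand (14.2% of all promoters). Fosl2 held an EGR site with G. GC content was 64.7% in the Egr1 window, 72.3% in Nr4a1, 52.7% in Ier2 and 69.7% in Jund, against a median of 51.7% over all promoters. These matches are descriptions of sequence and no binding was measured.

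Levels are the deposited regularized log (rlog) values, on a log2 scale and shrunken toward each gene's mean, so a difference of 1 is a doubling on that scale and can understate the change in the reads. They are not per length, and levels of different genes are therefore not compared. Median rlog over the tested genes was 8.63 to 8.82 in the 15 libraries, and sequencing depth is unknown from the values. In whole retina, fewer cells of a type and less RNA per cell cannot be told apart. The labelled tissue held a defining marker, as the rod gene Gnat1 was at a high level in every library (14.71 to 18.04). MSC replicate 1 and MSCEPO replicate 3 stood apart from their groups. The 64 ribosomal protein genes of MSC replicate 1 had a median 1.06 above NT, where the other 14 libraries lay between -0.26 and 0.41. In MSCEPO replicate 3 the shortest 25% of genes by genomic span stood 0.50 above the longest 25%, where the other 14 lay between -0.15 and 0.10. As 7 of the 10 members are among those shortest genes, results that rest on these libraries are given with and without them.

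Jun and Jund passed the test against NT in the MSC and MSCEPO groups, and were higher there. With all libraries weighted equally Junb passed in no comparison, and no Jun gene passed against sham or between the cell groups. Jun, the best-known AP-1 subunit, was at rlog 10.14, 10.26 and 9.75 in NT, 10.53, 10.36 and 10.38 in sham, 11.13, 10.79 and 10.79 in MSC, 10.79, 10.70 and 11.02 in MSCEPO, and 10.96, 10.60 and 10.44 in DPSC. Every NaIO3 library lay above every NT library. By group mean the order was MSC (10.90 ± 0.20, SD, n = 3), MSCEPO (10.84 ± 0.16), DPSC (10.67 ± 0.27), sham (10.43 ± 0.09) and NT (10.05 ± 0.26), and only sham and NT, at the bottom of that order, were neighbours whose ranges did not overlap.

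Jund, the Jun protein usually present in resting cells, was at 10.46, 10.44 and 10.31 in NT, 10.63, 10.80 and 10.75 in sham, 11.42, 10.97 and 10.86 in MSC, 10.87, 11.04 and 11.41 in MSCEPO, and 10.84, 10.73 and 10.63 in DPSC. Its levels thus fell into 3 bands that did not overlap, with NT lowest, sham and DPSC together, and both MSC groups highest. Junb, which often restrains Jun, was tightly grouped in NT (8.94, 8.95 and 9.03) and sham (9.36, 9.42 and 9.33) and widely spread in the cell groups, with 10.46, 9.31 and 9.36 in MSC, 9.32, 9.70 and 10.11 in MSCEPO, and 9.62, 9.12 and 9.79 in DPSC. MSC replicate 1 held the highest Jun, Junb and Jund level of the 15 libraries, and without it the MSC libraries lay beside sham for Junb.

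**Figure D1:**
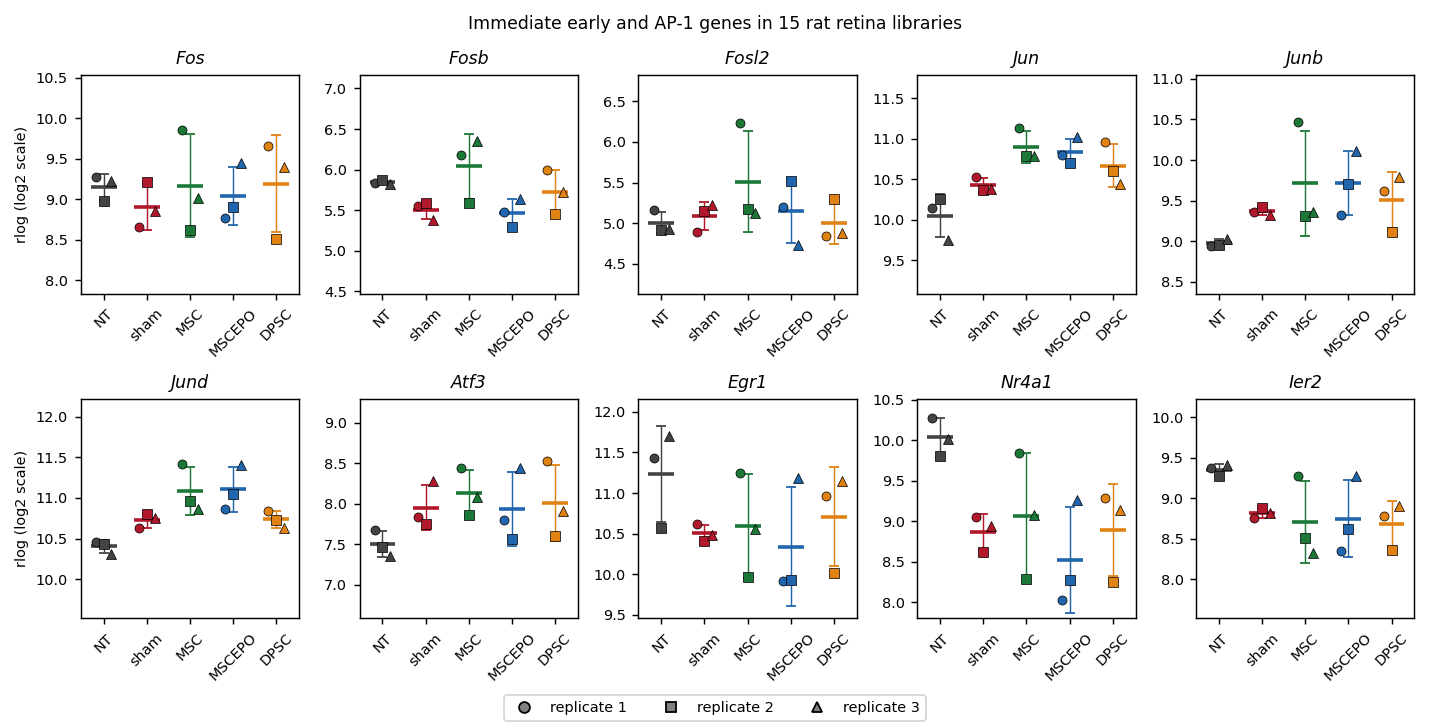
Level (rlog, log2 scale) of each gene in the 15 libraries by group, with symbols for replicates, horizontal bars for group means and error bars for the SD (n = 3), on axes of equal height. Jun and Jund of every NaIO3 library lie above NT, Nr4a1 lies lower in most, and the cell groups spread widely for Egr1, Nr4a1, Fos and Junb.

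Of the early response members outside AP-1, Nr4a1 had a mean below NT in every NaIO3 group and in the main fit passed in MSCEPO. Egr1 and Ier2 passed in no comparison with all libraries weighted equally. Nr4a1 was at 10.28, 9.81 and 10.02 in NT, 9.05, 8.63 and 8.94 in sham, 9.84, 8.29 and 9.08 in MSC, 8.03, 8.28 and 9.27 in MSCEPO, and 9.29, 8.25 and 9.14 in DPSC. Of the 12 NaIO3 libraries, MSC replicate 1 alone reached the NT range. Ier2 was at 9.37, 9.27 and 9.41 in NT and 8.75, 8.88 and 8.82 in sham, and at 9.28, 8.51 and 8.33 in MSC, 8.35, 8.62 and 9.27 in MSCEPO, and 8.77, 8.36 and 8.91 in DPSC, so that MSC replicate 1 and MSCEPO replicate 3 reached the NT range and the others did not. Egr1 varied widely in every group but sham, also in healthy retina, where it was at 11.43, 10.56 and 11.70. It was at 10.62, 10.41 and 10.48 in sham, 11.25, 9.97 and 10.55 in MSC, 9.91, 9.93 and 11.18 in MSCEPO, and 10.96, 10.01 and 11.15 in DPSC, and all of these groups overlapped NT.

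The Fos family had no common direction. Fos, the prototype of the immediate early genes, was at 9.27, 8.97 and 9.22 in NT, 8.66, 9.21 and 8.85 in sham, 9.86, 8.62 and 9.02 in MSC, 8.77, 8.91 and 9.45 in MSCEPO, and 9.66, 8.52 and 9.40 in DPSC, and all 5 groups overlapped. Fosb, known for its long-lived splice form in neurons, lay between 5.82 and 5.88 in NT and between 5.38 and 5.58 in sham, with 6.19, 5.59 and 6.35 in MSC, 5.47, 5.29 and 5.63 in MSCEPO, and 5.99, 5.46 and 5.73 in DPSC. Sham and MSCEPO were below NT without overlap, and 2 of the 3 MSC libraries were above it. Fosl2 (Fra-2) ranged from 4.73 to 5.52 in 14 libraries and was 6.23 in MSC replicate 1. Atf3 lay between 7.35 and 7.67 in NT, between 7.75 and 8.27 in sham, between 7.86 and 8.44 in MSC, between 7.56 and 8.44 in MSCEPO, and between 7.60 and 8.52 in DPSC. Sham and MSC were above NT without overlap, and MSCEPO and DPSC overlapped it.

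**Figure D2:**
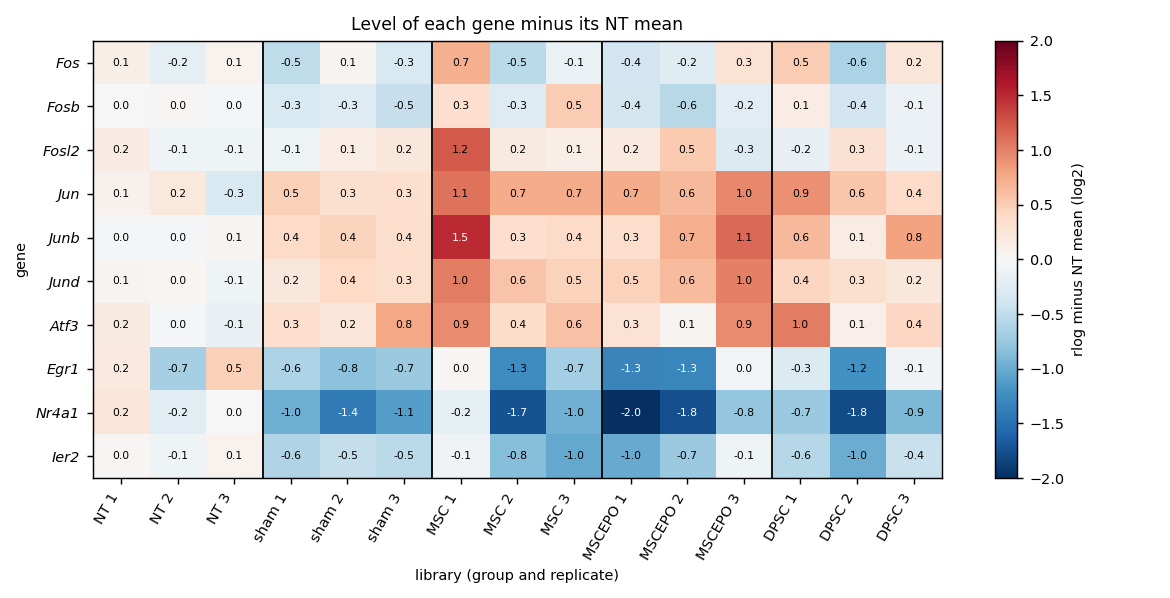
Level of each gene in each library minus its NT mean (rlog difference, log2), with genes as rows and the 15 libraries as columns, group by group. The Jun family rows are above 0 in every NaIO3 library and the Nr4a1 and Ier2 rows below 0, while MSC replicate 1, MSCEPO replicate 3, DPSC replicate 1 and DPSC replicate 3 are higher than the other libraries of their groups in most rows.

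The comparison of sham with NT asks what NaIO3 with vehicle left at day 31. Nr4a1 differed by -1.16 in sham (SE 0.38, 95% interval -2.0 to -0.32, adjusted p = 0.227) and Egr1 by -0.73 (-1.62 to 0.17, adjusted p = 0.557). Jun differed by 0.38 (0.05 to 0.70, adjusted p = 0.334) and Ier2 by -0.53 (-1.10 to 0.03, adjusted p = 0.466). For Fos the difference was -0.25, with an interval from -0.89 to 0.39. With a call defined as an adjusted p under 0.05 and a log2 difference over 1, limma called 0 of the 10 members, against 0.344% of all tested genes, and an adjusted p under 0.05 alone also gave 0, against 1.04%. An unadjusted p under 0.05 was reached by 2 of 10, Jun and Nr4a1 (background 11.7%). Sham and NT did not overlap for 7 of the 10 members, against 31.9% of all tested genes. These were Jun, Junb, Jund and Atf3, higher in sham (16.6% of all tested genes), and Fosb, Nr4a1 and Ier2, lower in sham (15.3%). The SEs pool the spread of all 12 libraries fitted, with MSC replicate 1 and MSCEPO replicate 3 among them. For Ier2 the SD was 0.08 in NT and 0.06 in sham, beside an SE of 0.26. With only NT and sham fitted, limma called Nr4a1 (adjusted p = 0.00599), while Jun, Egr1 and Fos did not pass (0.124, 0.126 and 0.345). With library weights Nr4a1 was called too, at -1.18 (limma adjusted p = 0.000299), and Fos, Jun and Egr1 passed the adjusted p alone. Ier2 and the remaining members were not among the genes followed singly in these alternatives.

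Between the MSC group and NT, Jun rose by 0.85 (SE 0.15, 0.52 to 1.18, adjusted p = 0.00451), a 1.80-fold difference, and Jund by 0.68 (SE 0.16, 0.32 to 1.04, adjusted p = 0.0176). Junb differed by 0.74 (0.12 to 1.35, adjusted p = 0.103) and Atf3 by 0.63 (0.10 to 1.15, adjusted p = 0.102). Nr4a1 differed by -0.97 (-1.81 to -0.13, adjusted p = 0.116) and Ier2 by -0.65 (-1.22 to -0.08, adjusted p = 0.119), and Fos by 0.01 (-0.63 to 0.65). No member met the call with the fold, against 6.5% of all tested genes, 2 of 10 passed the adjusted p alone, against 15.5%, and 6 of 10 had an unadjusted p under 0.05, against 29.5%. The 4 members whose groups did not overlap (Jun, Junb, Jund and Atf3, all higher) compare with 44.1% of all tested genes, and with 22.9% that were higher. Jun passed in all 15 alternatives computed, and Jund lost its pass without any single NT library (adjusted p = 0.0502 to 0.0719).

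In the MSCEPO group against NT the same Jun genes rose and Nr4a1 fell. In the main limma fit Nr4a1 was the single member called in any comparison, with a difference of -1.51 (SE 0.38, -2.35 to -0.67, adjusted p = 0.0308), 2.85-fold lower. Jun rose by 0.79 (SE 0.15, 0.46 to 1.12, adjusted p = 0.0085) and Jund by 0.70 (SE 0.16, 0.34 to 1.06, adjusted p = 0.0216). Junb differed by 0.74 (adjusted p = 0.125), Egr1 by -0.89 (-1.79 to 0.01, adjusted p = 0.198) and Ier2 by -0.61 (adjusted p = 0.169). Thus 1 of 10 members was called, against 3.56% of all tested genes, and 3 of 10 passed the adjusted p alone, against 10.2%. An unadjusted p under 0.05 was reached by 5 of 10, against 25.7%. The groups did not overlap for 5 of 10, against 31.4%, with Jun, Junb and Jund higher (16.4% of all tested genes) and Fosb and Nr4a1 lower (15%). The Nr4a1 call held in 10 of 15 alternatives and was lost without any single NT library and without MSCEPO replicate 1 or 2 (adjusted p = 0.0697 to 0.108). Jund lost its pass without any single NT library or MSCEPO replicate 2 (0.0535 to 0.0915).

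Leaving out both MSC replicate 1 and MSCEPO replicate 3, an alternative chosen after the data were seen, left the Jun and Jund differences somewhat smaller and made those of the genes outside AP-1 larger. In MSC against NT, Jun was then 0.74 higher (adjusted p = 0.00322) and Jund 0.51 higher (adjusted p = 0.00251), while Ier2 differed by -0.94 (adjusted p = 0.00029), Nr4a1 by -1.35 (adjusted p = 0.00238) and Egr1 by -0.97 (adjusted p = 0.0318). In MSCEPO against NT the values were 0.70 for Jun, 0.55 for Jund, -0.87 for Ier2 (adjusted p = 0.000331), -1.88 for Nr4a1 (adjusted p = 0.000368) and -1.31 for Egr1 (adjusted p = 0.00706). Junb then passed as well, at 0.36 (adjusted p = 0.032) in MSC and 0.54 (adjusted p = 0.00428) in MSCEPO. Fos remained under the threshold, at -0.34 and -0.31. With the fold threshold, 1 member was called in MSC and 2 in MSCEPO, among 898 and 1069 genes called over the whole table. The 2 libraries left out are the ones of their groups in which Egr1, Nr4a1 and Ier2 lay nearest to NT.

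DPSC against NT gave differences of the same signs for the Jun family, Nr4a1 and Ier2. Jun differed by 0.62 (SE 0.16, 0.27 to 0.97, adjusted p = 0.0607), Jund by 0.33 (0.00 to 0.66, adjusted p = 0.296), Nr4a1 by -1.14 (-2.0 to -0.28, adjusted p = 0.153) and Ier2 by -0.67 (-1.22 to -0.12, adjusted p = 0.194). In the main fit limma called 0 members under either rule, against 0.784% and 2.85% of all tested genes, and an unadjusted p under 0.05 was reached by 4 of 10, against 16.8%. Of 13 alternatives computed for each gene, Jun passed the adjusted p in 3 (lowest limma adjusted p = 0.000137). Nr4a1, Ier2 and Jund passed it in 1 each (0.000762, 0.000588 and 0.00097). Groups did not overlap for 5 of 10, against 31.7%, with Jun, Junb and Jund higher (16%) and Nr4a1 and Ier2 lower (15.7%). All 4 comparisons share the 3 NT libraries.

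**Figure D3:**
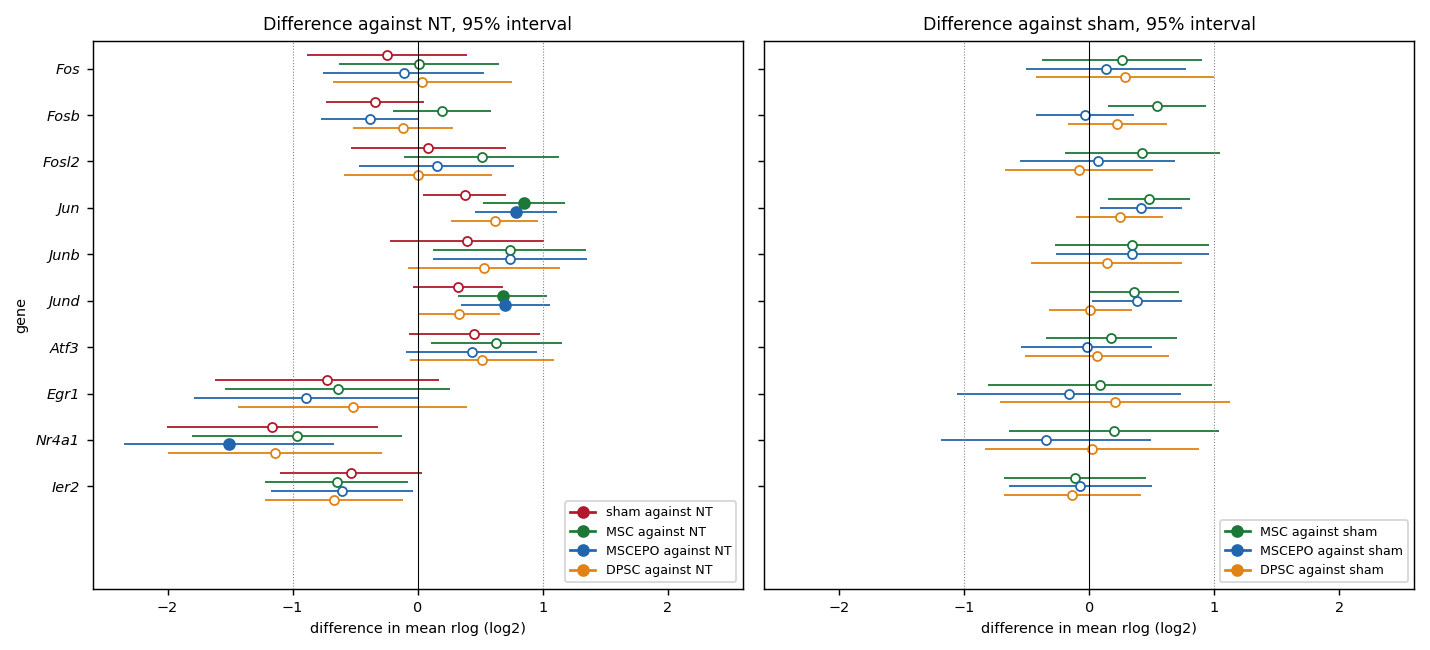
Difference in mean rlog (log2) with its 95% interval for each gene against NT in 4 groups (left) and against sham in 3 groups (right), with filled circles where the adjusted p is under 0.05 and dotted lines at 1 and -1. Filled circles are Jun and Jund in MSC and MSCEPO and Nr4a1 in MSCEPO against NT, and none stand against sham.

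Against sham, which asks what the cells together with the immunosuppressants added to NaIO3, no member passed with all libraries weighted equally. In MSC, Jun was 0.47 higher than in sham (SE 0.15, 0.15 to 0.80, adjusted p = 0.188) and Fosb 0.54 higher (SE 0.18, 0.15 to 0.93, adjusted p = 0.205). Fosb passed the adjusted p there in 1 of 15 alternatives (limma adjusted p = 0.0104). MSCEPO differed from sham by 0.41 for Jun (0.08 to 0.74, adjusted p = 0.57) and by 0.38 for Jund (0.02 to 0.74, adjusted p = 0.622). For Nr4a1 the differences from sham were 0.20 (-0.65 to 1.04) in MSC, -0.35 (-1.19 to 0.49) in MSCEPO and 0.02 (-0.84 to 0.88) in DPSC, intervals that leave room for a change of either sign. Without MSC replicate 1 and MSCEPO replicate 3 the Nr4a1 difference was -0.19 in MSC (adjusted p = 0.687), of the other sign, and -0.72 in MSCEPO (adjusted p = 0.0886). With library weights Nr4a1 passed in MSCEPO, at -0.70 (adjusted p = 0.0074), and so did Jund, at 0.34 (adjusted p = 0.00879), where 398 genes in all were called in place of 7. Without the same libraries Jun was 0.36 higher than sham in MSC and 0.32 higher in MSCEPO, Fosb 0.47 higher in MSC and Jund 0.23 higher in MSCEPO, and none passed (adjusted p = 0.147 to 0.204). The background of called genes was itself low, at 0.0843% in MSC, 0.0454% in MSCEPO and 0.013% in DPSC, and by the adjusted p alone at 0.0972%, 0.0843% and 0.0195%. An unadjusted p under 0.05 was reached by 2 of 10 members in MSC (12.9% of all tested genes), by 2 in MSCEPO (7.85%) and by 0 in DPSC (2.37%). Groups did not overlap for Fosb, Jun and Jund in MSC (3 of 10, background 24.5%) and for Jun and Jund in MSCEPO (2 of 10, background 14.2%), all higher than sham (13.2% and 7.44% of all tested genes), and for none in DPSC (9.82%). All 3 comparisons share the sham libraries.

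Between the cell groups no member was called either. Fosb was 0.58 higher in MSC than in MSCEPO (SE 0.18, 0.19 to 0.97, adjusted p = 0.793), and Nr4a1 0.54 higher (-0.30 to 1.39, adjusted p = 0.793), so Nr4a1, called in MSCEPO and not in MSC, had no passing difference between them. Jund differed by -0.35 between DPSC and MSC (-0.68 to -0.02, adjusted p = 0.665) and by -0.37 between DPSC and MSCEPO (-0.70 to -0.04, adjusted p = 0.996), with no overlap in either. Fosb in MSC against MSCEPO passed the adjusted p in 1 of 15 alternatives (limma adjusted p = 0.013). Jund in DPSC against MSCEPO passed it in 1 of 13 (0.0202). Called genes were 0.00648%, 0% and 0% of all tested in MSC against MSCEPO, DPSC against MSC and DPSC against MSCEPO, and an unadjusted p under 0.05 was reached by 1 member in each (3.14%, 7.02% and 2.48% of all tested genes). No overlap was seen for 0, 1 and 1 of 10 members, against 4.09%, 6.7% and 4.34%, and Jund, the 1 member in each of the last 2, was lower in DPSC (3.68% and 1.95% of all tested genes).

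Within groups, most members varied more than other genes did and varied together. The pooled SD within groups was 0.58 for Egr1, larger than that of 95.3% of tested genes, 0.54 for Nr4a1 (94.3%) and 0.45 for Fos (90.8%). Junb (0.38), Fosl2 (0.36), Atf3 (0.35) and Ier2 (0.34) had a larger SD than at least 82.3% of genes, while Jun (0.21), Fosb (0.23) and Jund (0.19) were nearer to the median gene at 0.195. Jun and Jund, which passed against NT, were thus among the 3 members with the smallest spread. The mean of the 10 members relative to NT, taken over genes of both directions, ranged from -0.10 to 0.10 in NT, -0.17 to -0.11 in sham, -0.25 to 0.65 in MSC, -0.30 to 0.30 in MSCEPO and -0.36 to 0.19 in DPSC.

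The members were high and low in the same libraries once the group means were removed. For Junb and Ier2, Pearson's r of the deviations over the 15 libraries was 0.957 (Spearman's rho 0.911), although across the 15 levels themselves r was 0.12 (rho -0.01), and the group means of these genes lay on opposite sides of NT. Egr1 and Nr4a1 had r 0.905 within groups and 0.893 across all libraries, Fos and Junb 0.872 and 0.622, and Nr4a1 and Junb 0.852 and -0.02. Of the 45 pairs of members, 42 had a positive r within groups and 11 reached 0.8, against 50.2% positive and 3.42% at 0.8 or more of all pairs of tested genes. Fosl2 stood outside, with r between -0.17 and 0.34 to the other 9. These r share libraries and only 10 degrees of freedom, and they are given as descriptions. Without MSC replicate 1 and MSCEPO replicate 3 the median r over the 45 pairs was 0.26 in place of 0.64, 31 were positive and 2 reached 0.8, Junb with Ier2 at 0.918 and Egr1 with Nr4a1 at 0.807, and 1.58% of all gene pairs reached 0.8.

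**Figure D4:**
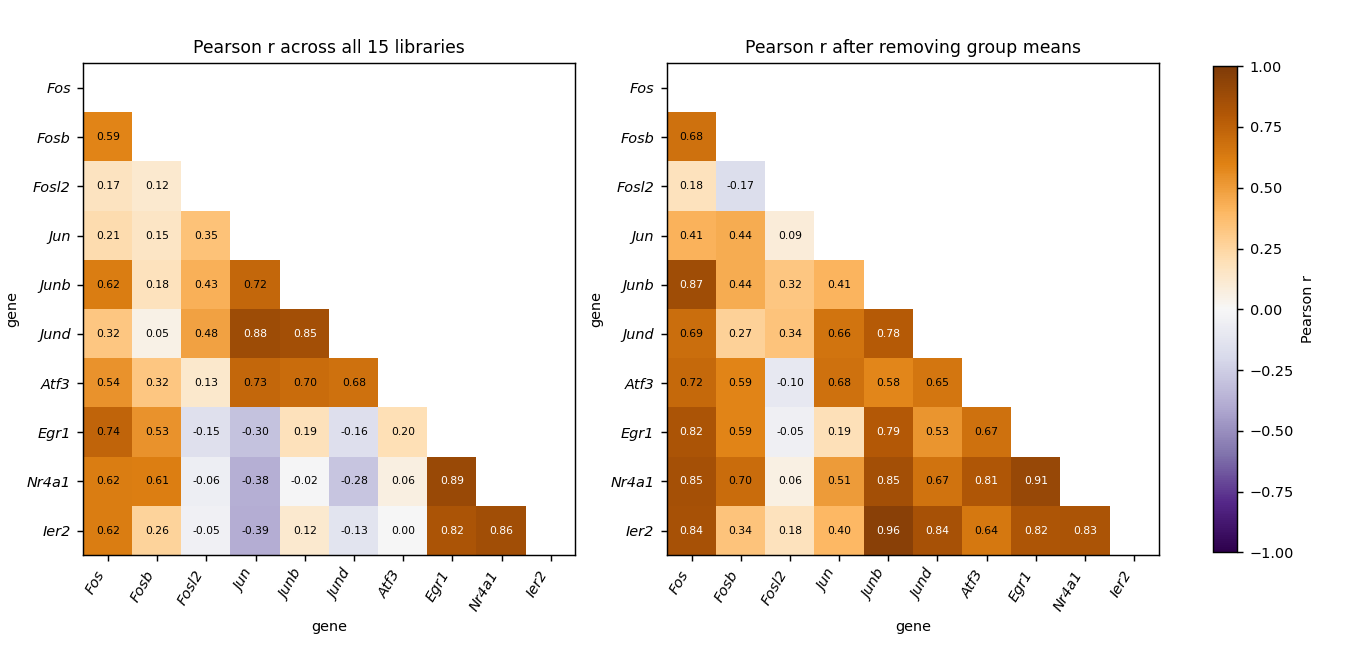
Pearson's r for each pair of genes across the 15 libraries (left) and after each group's mean was removed (right), with colour from -1 to 1. Jun and Jund are weakly negative with Nr4a1 and Ier2 on the left and positive on the right, and Junb with Ier2 goes from 0.12 to 0.96.

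In the cell groups, the libraries high within their groups were MSC replicate 1, MSCEPO replicate 3, DPSC replicate 1 and DPSC replicate 3, and they were also high in lens markers. The lens, cornea and ciliary body list (8 of 9 markers tested, crystallins among them) stood 2.13 above NT in MSC replicate 1 against 0.16 and 1.18 in the other 2 of its group, 2.83 in MSCEPO replicate 3 against -1.07 and -0.14, and 3.99 and 3.11 in DPSC replicates 1 and 3 against -1.03 in replicate 2. In sham it ranged from 1.35 to 1.96 and in NT from -1.42 to 0.85, and there the order was not the same. NT replicate 1 had the highest member mean of NT (0.10) and the lowest lens level. NT replicate 2 had the lowest member mean (-0.10) and the highest lens level. Sham replicate 3 had the highest member mean of sham (-0.11) and the lowest lens level. The ribosomal protein median was 1.06 in MSC replicate 1, 0.41 in MSCEPO replicate 3, 0.41 in DPSC replicate 1 and 0.21 in DPSC replicate 3. The part of lens tissue, or of the shift in ribosomal and short genes, in the spread of the members was not tested.

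Outside the members, the genes closest to the mean profile of the 10 over 15 libraries were Rexo2 (Pearson's r 0.930, Spearman's rho 0.821), an RNA exonuclease, Slc35b1 (0.926, rho 0.914), Denr (0.880, rho 0.804), a translation factor, and the ribosomal protein genes Rpl19 (0.880, rho 0.754) and Rpl34 (0.878, rho 0.725). Closest to Ier2 was Dusp1 (r 0.948, rho 0.889), the phosphatase that shuts off MAP kinases and itself an immediate early gene, and Dusp1 was also the second closest to Nr4a1 (0.923, rho 0.946) and Egr1 (0.876, rho 0.907). Dusp1 was at 9.50, 9.32 and 9.56 in NT, 8.76, 8.67 and 8.57 in sham, 9.77, 8.22 and 8.23 in MSC, 8.02, 8.21 and 9.23 in MSCEPO, and 9.05, 7.95 and 8.75 in DPSC. MSC replicate 1 alone of the NaIO3 libraries reached the NT range, and MSCEPO replicate 3 lay just below it. The closest to Nr4a1 was Ppp1r15a (r 0.944, rho 0.939), which restores translation after stress, and the closest to Egr1 was Surf2 (0.920, rho 0.918). Jund was closest to Ppm1m (r 0.941) and Gtf3a (0.934), Jun to LOC100360087 (0.935) and Krcc1 (0.934), Junb to Oaf (0.918) and Ppm1g (0.915), and Fos to Rexo2 (0.888) and Nop53 (0.842).

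Among the kinases and factors listed as upstream of these genes, Elk3 alone passed against NT. Of 20 listed (MAP kinases, their kinases, and the SRF, ELK and CREB factors), 0 passed in sham and in DPSC against NT and 1 passed in MSC and in MSCEPO. That gene was Elk3, a partner of serum response factor, 1.64 higher in MSC (adjusted p = 0.00272) and 1.27 higher in MSCEPO (adjusted p = 0.0119), with 0.82 in sham (adjusted p = 0.206) and 0.99 in DPSC (adjusted p = 0.0685). Median differences over the list were -0.02 in sham, -0.05 in MSC, 0.03 in MSCEPO and -0.05 in DPSC, beside 0.00 over all tested genes in each. The adjusted p was passed by 1.04%, 15.5%, 10.2% and 2.85% of all tested genes in these groups. Crem, a cyclic AMP responsive factor, differed by -0.55, -0.32, -0.59 and -0.51 in sham, MSC, MSCEPO and DPSC without passing (adjusted p = 0.228, 0.271, 0.0641 and 0.155). Map2k3 differed by 1.06 in DPSC (limma adjusted p = 0.206) and Mapk8 by -0.71 in MSCEPO (0.115), also without passing.

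Among 16 feedback regulators, Dusp4, a nuclear MAP kinase phosphatase, was lower in every NaIO3 group. It differed from NT by -1.03 in sham (adjusted p = 0.0202), -1.70 in MSC (adjusted p = 0.000333), -1.69 in MSCEPO (adjusted p = 0.000287) and -1.28 in DPSC (adjusted p = 0.0115). Its levels were 10.26 to 10.35 in NT and 8.25 to 9.38 in the 12 other libraries. Spry4, an inhibitor of growth factor signalling, passed the adjusted p at -0.96 in MSC and -0.91 in MSCEPO. Zfp36l1, which destabilizes AU-rich transcripts, rose by 1.24 in MSC (adjusted p = 0.00859), and Zfp36l2 passed there at 0.55. With the fold threshold 0 of 16 were called higher and 1 lower in sham, MSCEPO and DPSC, and 1 each way in MSC. Of all tested genes, 0.344%, 6.5%, 3.56% and 0.784% were called in sham, MSC, MSCEPO and DPSC. List medians were -0.06, 0.22, -0.12 and -0.04 in sham, MSC, MSCEPO and DPSC.

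Other immediate early genes gave 20 tested of 21 listed. Ctgf, a matricellular gene, passed in all groups against NT, at 0.87 in sham (adjusted p = 0.0382), 1.20 in MSC, 1.60 in MSCEPO and 1.20 in DPSC. Myc rose by 1.38 in MSC and by 1.01 in MSCEPO (adjusted p = 0.00176 and 0.0102), and Egr2 passed at 0.88 in MSC. Npas4, an activity-dependent neuronal factor, passed at -0.66 in MSC and -0.70 in MSCEPO, with -0.37 in sham (adjusted p = 0.108). Passing the adjusted p were 1 higher and 0 lower in sham, 7 and 1 in MSC, 4 and 1 in MSCEPO, and 1 and 0 in DPSC, with list medians of 0.07, 0.37, 0.34 and 0.20. Over all 15429 tested genes (15424 for DPSC), 92 passed higher and 68 lower in sham. The same counts were 1519 and 871 in MSC, 824 and 756 in MSCEPO, and 221 and 218 in DPSC.

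Other AP-1 and related leucine zipper genes gave 10 tested of 12. Fosl1 (Fra-1), the Fos family gene outside the 10 members, passed in all groups, at 0.68 in sham (adjusted p = 0.023), 0.97 in MSC, 0.88 in MSCEPO and 0.71 in DPSC. Maf passed at 0.69, 0.62 and 0.94 in MSC, MSCEPO and DPSC. Passing higher were 1, 5, 2 and 2 of 10 in sham, MSC, MSCEPO and DPSC, and 0 passed lower, with medians of 0.18, 0.51, 0.36 and 0.25. Of all tested genes, 92, 1519, 824 and 221 passed higher in these groups.

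Around Atf3, the 14 integrated stress and DNA damage genes had medians of 0.18, -0.04, 0.01 and 0.03 in sham, MSC, MSCEPO and DPSC. Cebpd, an acute phase factor, was called in all 4, at 1.43, 2.22, 2.46 and 1.87 (adjusted p = 0.00335, 0.000104, 3.93e-05 and 0.000669). Sesn2 passed in all 4 as well, at 0.75, 0.65, 0.80 and 0.57. Gadd45g passed in MSC, MSCEPO and DPSC, at 0.85, 1.08 and 0.67, and Cebpb rose by 1.23 in MSC. Atf4, the main driver of the integrated stress response, passed at -0.96 in MSC, the 1 gene of the list that passed as lower there. In all, 2, 5, 4 and 3 passed higher in sham, MSC, MSCEPO and DPSC, beside 92, 1519, 824 and 221 of all tested genes.

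Genes known as AP-1 targets had the largest median differences of the 6 lists, with 14 tested of 16. Medians were 0.64 in sham, 1.45 in MSC, 1.40 in MSCEPO and 0.87 in DPSC, and 12 of 14 were above 0 in each. Those called higher were 1, 9, 6 and 4, beside 45, 852, 365 and 81 of all tested genes, and 0 were called lower. Timp1, an inhibitor of metalloproteinases, rose by 1.75, 2.29, 2.53 and 1.87 (adjusted p = 0.0173, 0.000852, 0.000451 and 0.0052). Hmox1, a haem-degrading enzyme, passed at 1.00 in sham (adjusted p = 0.0484) and rose by 1.73, 1.64 and 1.44 in the cell groups. Vim, which is also on the Müller glia list, and Ccnd1, a cyclin, rose in all 3 cell groups, by 1.31, 1.34 and 1.44 and by 2.03, 2.01 and 1.53. Spp1, abundant in activated macrophages, rose by 1.55 in MSC and 1.47 in MSCEPO. Lif, Cd44 and Plau rose in MSC, by 1.36, 1.28 and 1.31. Against sham, 0 genes passed in any of the 6 lists in the 3 cell groups, and Cebpd in MSCEPO came nearest at 1.03 (adjusted p = 0.054). The target genes respond to many other factors too, and AP-1 binding was not measured. The paper, which compared MSCEPO with sham by DESeq2, reports Ccnd1 and Plau as significant in MSCEPO. In the limma fit here Ccnd1 differed from sham by 0.74 in MSCEPO (adjusted p = 0.622), and Plau did not pass there either. The 6 lists were chosen with earlier results of these data known. The ranking of the lists by median is thus a description and not a test.

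**Figure D5:**
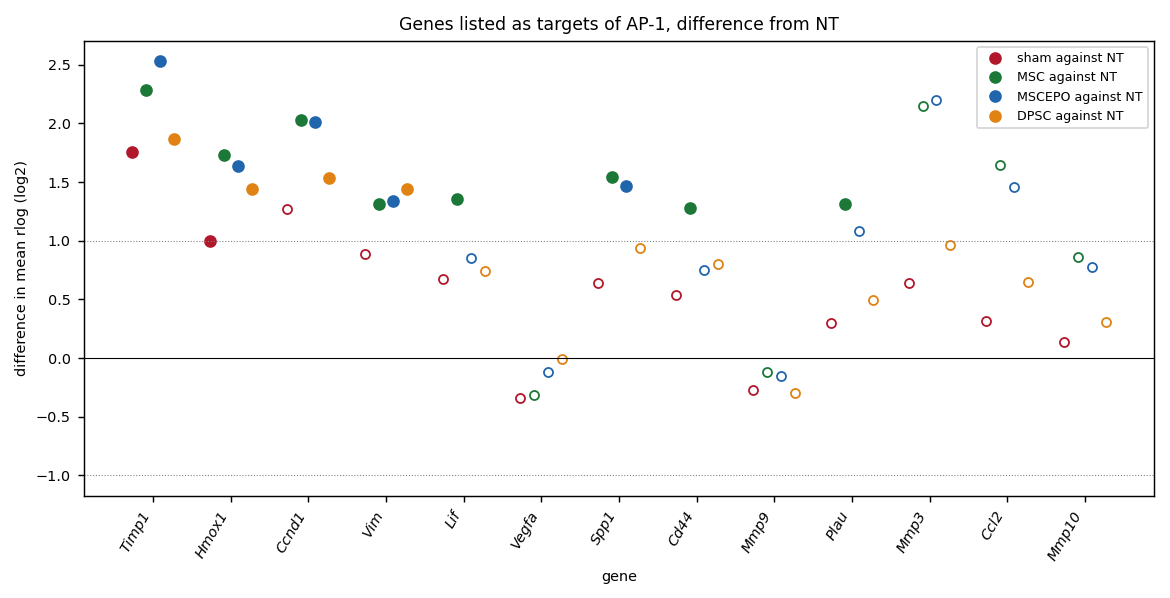
Difference in mean rlog from NT (log2) for 13 of the 14 tested genes of the AP-1 target list in sham, MSC, MSCEPO and DPSC, with filled circles where the adjusted p is under 0.05 and dotted lines at 1 and -1. Most genes are above 0 in all 4 groups, and Timp1 and Hmox1 are the genes filled in every group.

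The makeup of the tissue moved with these groups. List levels relative to NT (mean of the tested markers) are given as the lowest and highest library. For microglia and macrophage markers (10 of 10 above NT in each group) they were 0.83 to 1.66 in sham, 2.01 to 3.66 in MSC, 1.72 to 2.53 in MSCEPO and 1.01 to 2.30 in DPSC, and the Jun family mean went from 0.34 to 0.39, 0.53 to 1.19, 0.52 to 1.04 and 0.34 to 0.66 in the same groups. Rod markers (8 of 8 below NT) stood at -0.90 to -0.66, -1.54 to -1.37, -1.83 to -1.38 and -1.63 to -0.80. Inner retinal neuron markers, from cells known to express Egr1 and Fos, stood at -0.16 to -0.01, -0.66 to -0.07, -0.34 to -0.04 and -0.33 to -0.04, and the mean of Egr1, Nr4a1 and Ier2 at -0.90 to -0.73, -1.28 to -0.08, -1.44 to -0.30 and -1.33 to -0.47. Müller glia and astrocyte markers stood at 0.45 to 0.71, 0.49 to 0.92, 0.54 to 0.85 and 0.50 to 0.78, but were split in direction. Of the 8 markers, 4 were above NT in sham and 5 in each cell group, with median differences of 0.04, 0.37, 0.33 and 0.21. Gfap, one of them, was at 9.43 to 10.08 in NT and 12.71 to 14.13 in the other libraries. T and NK cell markers reached 0.94 to 3.31 in MSC and 0.47 to 1.30 in MSCEPO, against 0.08 to 0.18 in sham and 0.14 to 1.04 in DPSC, and B cell markers 1.39 to 4.19 in MSC, 0.08 to 1.83 in MSCEPO, -0.10 to -0.03 in sham and -0.04 to 1.68 in DPSC. Of 8 neutrophil markers 3 were tested, at 0.90 to 1.33, 1.65 to 2.78, 1.68 to 1.92 and 0.88 to 1.59 in sham, MSC, MSCEPO and DPSC. Endothelial and pericyte markers stayed between -0.15 and 0.53 in all 4, retinal pigment epithelium markers between -2.14 and -0.09, and the 2 erythrocyte markers tested between -0.28 and 2.94. Within MSC the Jun family mean and the myeloid, T and B cell levels were all highest in replicate 1. In MSCEPO the Jun family was highest in replicate 3 (1.04), where myeloid (1.72), T and NK (0.47) and B cell (0.075) levels were lowest, and in DPSC it was highest in replicate 1 (0.66), where myeloid (1.01) and B cell (-0.039) levels were lowest. The part of these cells in the levels of the members was not tested.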

How the data were processed

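Total RNA of retinas was sequenced by the authors as stranded mRNA libraries, in 3 libraries for each of 5 groups taken from the sample labels. Per the labels and the study's methods, reads were quantified with Salmon (1.1.0) on Rnor_6.0, summed to genes with tximport and transformed with DESeq2 (version 3.2 as the submitters' notes give it). The deposited log2 values are the authors' rlog values, corrected for library size and shrunken. Depth is unknown and no counting interval is given. A table of the whole series held 15 further columns whose names match no label, and these were not used.

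Values were analysed as deposited with limma 3.58.1 in R 4.3.3, without a pseudocount, for genes with a mean of at least 3.32 (log2 of 10). Group means were fitted over the 12 libraries of NT, sham, MSC and MSCEPO, and over all 15 for comparisons with DPSC. p-values were two-sided and adjusted over all tested genes by Benjamini-Hochberg in each of 10 comparisons. The fit was tested on simulated data. Genes were called where the adjusted p was below 0.05 and the log2 difference beyond 1 in size, and the adjusted p alone was a second rule. All 10 members were named in each comparison, then from 6 pathway lists the genes called and up to 4 with the smallest adjusted p, of which the text gives a part. Single-gene results of some list members are not reported here, and the list counts include them. Marker lists were given as mean levels. Likeness was Pearson's r over 15 libraries, for the 5 genes nearest to the members' mean and the 2 nearest to each member. The members and lists were chosen with earlier results of these data known. The ribosomal and gene length measures and the correlations within groups were added after the data were seen, with genomic spans from RefSeq for 88.0% of tested genes. Alternatives covered filters, scaling, the samples fitted, library weights, the replicate block and leaving out each library.

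Replicate numbers were checked by the correlation of deviations of same-numbered libraries. It was over 0.1 in all 3 pairs of MSC with MSCEPO (0.263, 0.159 and 0.279), and in 12 of 30 pairs over all comparisons. Its highest value was 0.653, for replicate 3 of DPSC with MSCEPO. The main fit used no pairing, and a replicate block was fitted as an alternative. The check cannot tell a pairing from shifts that such libraries share. A possible pairing of MSC with MSCEPO comes from this check and not from the labels.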

Additional observations from a re-analysis of the deposited data

How the results depend on the processing

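The members called changed with the setting in 3 comparisons against NT. In sham it was 0 (with 53 genes called over the whole table, as in the other parentheses). It was 1, Nr4a1, with only the 2 groups compared (177) and with library weights (176). In MSC it was 0 (1003), and 2 by the adjusted p alone (2390), 0 to 1 when single libraries were left out (1 without MSC replicate 1, with 760) and 1 without MSC replicate 1 and MSCEPO replicate 3 (898). In MSCEPO it was 1 (549), and 3 by the adjusted p alone (1580), 2 with library weights (1046), 0 to 2 when single libraries were left out (0 without any 1 NT library or without MSCEPO replicate 1 or 2, with 277 to 419, and 2 without MSCEPO replicate 3, with 908) and 2 without both libraries named above (1069). The causes were not tested. In the other 7 comparisons it was 0 under every alternative computed. With the replicate block, 1 member was called in MSCEPO against NT and 0 in the other 9 comparisons. The block changed no member's call by both criteria, also between MSC and MSCEPO, where a pairing was considered. By the adjusted p alone, Jun in DPSC against NT passed with the block (log2 difference 0.62, limma adjusted p = 0.0484).

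Single genes were followed in 35 pairs of gene and comparison. These pairs had an unadjusted limma p under 0.05 in the main fit, or were Fos or Egr1 against NT or Nr4a1 against sham. Of 503 alternatives for them, 443 kept sign and side of the threshold and 33 passed only there (most of them with library weights). A pass was lost in 12, and 15 changed sign, all of them Fos against NT or Nr4a1 against sham. The Fos difference of 0.01 in MSC was -0.053 with median centring, -0.040 with quantile normalization and -0.34 without both libraries named above, and ran from -0.34 (without MSC replicate 1) to 0.28 when single libraries were left out, negative also without NT replicate 2 (-0.082). Its -0.11 in MSCEPO ran from -0.31 to 0.023 (without MSCEPO replicate 1). Its 0.037 in DPSC ran from -0.20 (without DPSC replicate 1) to 0.38, negative also without NT replicate 2 (-0.054) and DPSC replicate 3 (-0.068). The Nr4a1 difference from sham of 0.20 in MSC was -0.19 without both libraries and ran from -0.19 (without MSC replicate 1) to 0.58 when single libraries were left out. Its 0.022 in DPSC was -0.00088 with quantile normalization and ran from -0.18 (without DPSC replicate 1) to 0.34, negative also without sham replicate 2 and DPSC replicate 3 (both -0.10). The estimates of library weights stopped short of their convergence tolerance in all 10 comparisons. Scaling moved the median of all tested genes by up to -0.10, in MSC against NT. Shrunken values and 3 libraries a group limit small differences, and depth could not be weighed.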

Other observations

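Fosl2, the member that did not vary with the others, was set apart by MSC replicate 1, at 6.23 where the other 14 libraries lay between 4.73 and 5.52. The genes with the most similar levels over the 15 libraries were Hjurp (Pearson's r 0.959, Spearman's rho 0.854), a chaperone of centromeric histone, and Apol11a (0.937, rho 0.818). Fosb was closest to Sf3a3 (0.783, rho 0.793) and Rwdd1 (0.775, rho 0.829), and Atf3 to Sh2d3c (0.840, rho 0.754) and Spsb2 (0.828, rho 0.736), the lowest top values among the members. The same MSC library held the highest T and NK cell level, 3.31 above NT, and the highest B cell level, 4.19 above NT. The relation of Fosl2 to these cells was not tested.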
